A study of Mus musculus with 6 samples.

Results

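The coagulation and complement genes that the liver expresses for the blood plasma were examined as a list of 37 genes, chosen by name for their place in clotting, fibrin breakdown or complement. Earlier results of these data were known when the list was drawn up, so counts over it describe these livers and are not a test. Of the 37 genes, 35 had a probe set with 1 gene symbol in the array annotation, out of 12393 genes measured in that way. The 35 comprised 20 of the 21 listed coagulation and fibrinolysis genes and 15 of the 16 listed complement genes. Cpb2 and C3 had no such probe set and were not analysed here. All 35 read above the upper quartile of every array, so a filter on dim probe sets would have removed none of them.

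The injected group consisted of livers from 3 mice, labelled C57WT, TFEB-injected, which had received an adenoviral vector to overexpress TFEB, a transcription factor of lysosomal and autophagy genes. The not-injected group consisted of livers from 3 mice labelled C57WT. All 6 mice were wild type for their genotype, of the C57 background and 1 month old, and each gave 1 Affymetrix array. The labels name no liver that received an empty vector, so the effects of the injection, of the vector and of TFEB cannot be told apart. They name neither the promoter that drives TFEB in the vector nor the time between injection and harvest. The labels call the arrays biological replicates.

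Hepatocytes secrete most clotting factors as inactive zymogens of serine proteases, which activate one another until thrombin turns fibrinogen into fibrin. Natural anticoagulants such as protein C and antithrombin restrain this cascade, and plasmin dissolves the clot. Complement is a second protease cascade of plasma. It is started by antibody, by sugar-binding lectins or by spontaneous turnover, passes through convertases that cleave C3, and ends in the pore of the terminal components.

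Values are the deposited log2 values per probe set, and every difference is the mean of injected livers minus the mean of not-injected livers, with its standard error (SE) from limma and 3 livers in each group. A gene was called when limma's p, adjusted by the Benjamini-Hochberg method over all 12393 genes, was under 0.05. Values that round to a whole number are written without decimals. The RNA came from whole liver, in which fewer cells of a type and less RNA per cell cannot be told apart. Of 10 hepatocyte markers, 9 did not pass, among them albumin, encoded by Alb, at -0.01 ± 0.06, and only Tat was called lower. The mean log2 value over these markers was 14.01 to 14.06 in injected livers and 14.23 to 14.27 in not-injected livers, and the median difference was -0.08. Tat, at -1.45, carried most of that gap, since without it the mean was 14.30 to 14.36 in injected livers and 14.40 to 14.41 in not-injected livers. The mean levels of the 10 markers ran from 12.09 to 15.06, and 15.06 was also the highest mean level of all genes. Whether the arrays resolve differences at such high levels was not tested, so markers that did not pass are not shown to be unchanged. The same limit applies to bright members that did not pass, such as Fgb, Fgg and Serpinc1, with mean levels up to 14.42. Tfeb itself read 0.05 ± 0.10 (adjusted p = 0.716). No source used here says whether its probe set detects the transcript of the vector, so this value does not check the labels. Injected replicate 2 correlated less with the other injected arrays (0.992 across probe sets) than these did with each other (0.997). The 42 probe sets of spike-in controls, RNAs added during labelling and hybridisation, were also lower on injected arrays, with a median difference of -0.41 and a range of -0.57 to -0.06. The amounts added are not in the labels, and a batch of labelling or hybridisation cannot be told apart from injection. The 3' minus 5' difference of the Gapdh control probe sets, a measure of RNA integrity, was 0.27, 0.19 and 0.17 in injected livers and 0.29, 0.36 and 0.39 in not-injected livers, without overlap. That of Actb was 1.49, 1.38 and 1.26 with injection and 1.29, 1.40 and 1.38 without it, and overlapped.

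Most of the 35 measured members of the list were lower in injected livers. Of the 35, 21 fell (60.0%), 3 rose and 11 did not pass, whereas 13.9% of all genes were called lower and 14.2% higher. Among the 2566 genes whose mean level was at least that of the lowest member, 22.9% were called lower. The median difference was -0.35 over the members and -0.05 over all genes. The injected and not-injected livers did not overlap in 29 members, 25 of them lower with injection and 4 of them higher. Over all genes the groups did not overlap in 46.2%, with 26.1% lower and 20.1% higher. Among the 2566 genes at least as bright as the lowest member they did not overlap in 1661, 868 of them lower and 793 higher. The terminal complement components C8a, C6 and C8g, plasma prekallikrein (Klkb1), antiplasmin (Serpinf2), the lectin pathway protease Masp1 and C9 fell by at least 1.5-fold, as did 3.3% of all genes. None rose by as much, against 6.3% of all genes, so 7 members passed this fold in either direction, against 9.6% of all genes. Of the 2566 genes at least as bright as the lowest member, 203 were called lower and 210 higher by this fold. The risers were Pros1, C2 and Mbl2.

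Falls were counted among the listed members of both cascades. In coagulation and fibrinolysis 10 fell, 1 rose and 9 missed the threshold, of 20 genes, with a median difference of -0.29. In complement 11 fell, 2 rose and 2 missed the threshold, of 15 genes, with a median of -0.42. Whether the cascades differ from each other was not tested. The spike-in controls moved the same way as these falls, with a median difference of -0.41, against -0.35 over the members. Of the 21 members that fell, 7 lay below the lowest spike-in difference of -0.57, and these were the same 7 that fell by at least 1.5-fold. The part of a labelling or hybridisation batch, or of the Gapdh 3' minus 5' difference, in the falls and rises was not tested.

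**Figure D1:**
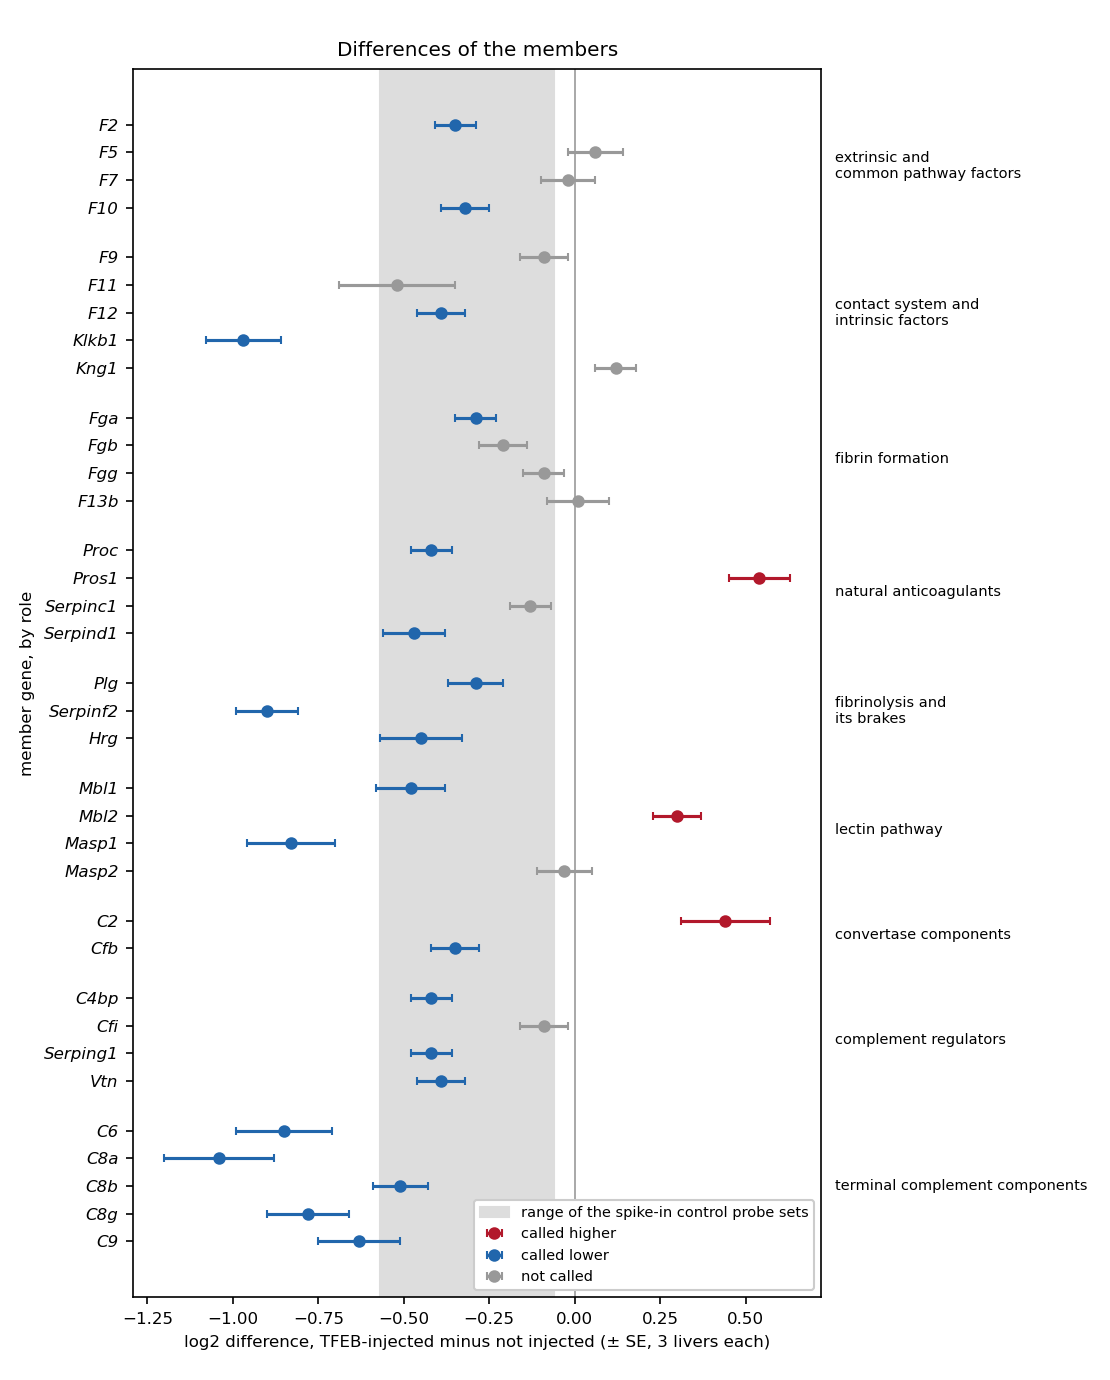
The horizontal axis gives the log2 difference of each of the 35 members, injected minus not injected livers, with bars for ± 1 SE (3 livers each), and the genes are ordered by role from top to bottom. Red points were called higher, blue points lower and grey points neither, and the grey band spans the spike-in controls from -0.57 to -0.06. Klkb1, Serpinf2, Masp1 and 4 of the 5 terminal components lie to the left of the band, and Pros1, Mbl2 and C2 to the right of 0.

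The extrinsic and common pathway leads from tissue factor through factor VII to factor X, factor V and prothrombin. F2, which encodes prothrombin, read 13.61, 13.58 and 13.60 in injected livers, against 13.96, 13.93 and 13.95 in not-injected livers. The groups lay apart, with a spread of 0.01 in each (SD, n = 3), and F2 fell by 0.35 ± 0.06 (limma adjusted p = 0.00468), to 78.4% of the not-injected level. F10, which encodes factor X, read 12.32, 12.37 and 12.27 with injection and 12.72, 12.57 and 12.62 without it. Every injected liver was below every not-injected one, and F10 fell by 0.32 ± 0.07 (adjusted p = 0.0145). Leaving out injected replicate 3 gave -0.29 with an adjusted p of 0.0507, which does not pass. F10 has further probe sets, which read -0.39 (adjusted p over all probe sets = 0.0222) and -0.26 (0.0652). F5, the cofactor of factor X, read 0.06 ± 0.08 (adjusted p = 0.639), and F7, the protease that binds tissue factor, -0.02 ± 0.08 (adjusted p = 0.858). Both overlapped between the groups, and both changed sign under some settings.

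The contact system starts clotting on surfaces and releases bradykinin from kininogen. Klkb1, which encodes its protease prekallikrein, read 11.40, 11.62 and 11.17 in injected livers, against 12.31, 12.41 and 12.40 in not-injected livers. The gap was wider than the spread of either group, with an SD of 0.23 with injection and 0.06 without it. Klkb1 fell 1.97-fold (-0.97 ± 0.11, adjusted p = 0.00124), the largest fall among the coagulation genes. F12, which encodes factor XII, the partner that activates prekallikrein, read 11.69, 11.50 and 11.62 with injection and 12, 11.98 and 12 without it. It fell by 0.39 ± 0.07 (adjusted p = 0.00663), again with no overlap.

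F11, the target of factor XII in the intrinsic pathway, read 9.92, 10.20 and 9.46 in injected livers and 10.33, 10.30 and 10.51 in not-injected livers. The groups did not overlap, but the injected livers were spread widely (SD 0.37, n = 3). The difference of -0.52 ± 0.17 did not pass (adjusted p = 0.0618). It was -0.69 without injected replicate 2 (adjusted p = 0.00822), which passes, and -0.32 without injected replicate 3 (adjusted p = 0.101). F9, which encodes factor IX, read -0.09 ± 0.07 (adjusted p = 0.399). Kng1, which encodes kininogen, gave opposed readings. Its brighter probe set read 0.12 ± 0.06 (adjusted p = 0.197) and the other -0.32 ± 0.07 (adjusted p over all probe sets = 0.014). The mouse has a closely similar neighbouring gene, Kng2, and which of these transcripts each probe set reports was not tested.

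Klkb1 lies next to F11 on chromosome 8 with 0 protein-coding genes between them. The 250 bases before its start, from RefSeq (GRCm38.p6, chr8:45294836-45295085, minus strand), are shown because Klkb1 had the largest fall of the coagulation members. Capitals mark a match to TTGCNNAA on either strand, a form of the site bound by C/EBP factors of hepatocytes.
Klkb1: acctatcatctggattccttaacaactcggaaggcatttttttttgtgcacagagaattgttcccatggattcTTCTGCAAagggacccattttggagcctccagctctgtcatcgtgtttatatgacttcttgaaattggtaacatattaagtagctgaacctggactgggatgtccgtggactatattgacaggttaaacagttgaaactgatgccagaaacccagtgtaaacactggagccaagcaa
The match begins 177 bases before the start, and no other motif searched was in this window.

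Fibrinogen is built of the chains encoded by Fga, Fgb and Fgg, which lie side by side on chromosome 3 with 0 protein-coding genes between neighbours. Fga read 13.69, 13.66 and 13.57 in injected livers, against 13.95, 13.90 and 13.95 in not-injected livers. Fgb read 14.36, 14.17 and 14.18 with injection and 14.49, 14.43 and 14.43 without it, and Fgg 14.42, 14.36 and 14.36 with injection and 14.53, 14.46 and 14.43 without it. In each chain every injected liver was below every not-injected liver, by a narrow margin for Fgg.

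Only Fga among the chains was called, with a fall of 0.29 ± 0.06 (adjusted p = 0.0142), and it lost its call without not-injected replicate 3 (-0.29, adjusted p = 0.0563). Fgb read -0.21 ± 0.07 (adjusted p = 0.069), and -0.28 without injected replicate 1, where it passed (adjusted p = 0.0445). Fgg read -0.09 ± 0.06 (adjusted p = 0.291). Differences between the chains were not tested. F13b, the carrier subunit of the enzyme that crosslinks fibrin, read 0.01 ± 0.09 (adjusted p = 0.948), with overlapping groups.

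The stretches of 250 bases before the starts of the fibrinogen genes are given for comparison of the neighbouring chains (RefSeq, GRCm38.p6). They lie at chr3:83025903-83026152, plus strand, chr3:83049864-83050113, minus strand, and chr3:83007474-83007723, plus strand. Capitals mark matches to TTGCNNAA and to GTTAAT, the half-site of the hepatocyte factor HNF1, on either strand.
Fga: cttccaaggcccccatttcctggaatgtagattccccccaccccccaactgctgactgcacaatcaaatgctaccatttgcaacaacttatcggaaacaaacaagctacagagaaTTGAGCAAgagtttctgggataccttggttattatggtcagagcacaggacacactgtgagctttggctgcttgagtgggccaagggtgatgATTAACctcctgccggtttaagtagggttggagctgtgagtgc
Fgb: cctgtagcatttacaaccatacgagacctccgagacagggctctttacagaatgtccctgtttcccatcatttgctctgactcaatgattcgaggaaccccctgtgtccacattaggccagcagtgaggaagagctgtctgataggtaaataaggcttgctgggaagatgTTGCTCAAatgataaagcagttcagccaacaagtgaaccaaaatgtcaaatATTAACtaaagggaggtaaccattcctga
Fgg: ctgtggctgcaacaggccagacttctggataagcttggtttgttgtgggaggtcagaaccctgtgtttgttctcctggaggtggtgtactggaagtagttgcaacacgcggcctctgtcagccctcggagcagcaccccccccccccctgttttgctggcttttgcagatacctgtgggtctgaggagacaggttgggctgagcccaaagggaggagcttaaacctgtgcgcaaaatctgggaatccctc
Fga and Fgb each hold 1 match to TTGCNNAA, 135 and 80 bases before the start, and 1 to GTTAAT, 43 and 29 bases before it. Fgg holds neither sequence in this window. The matches did not overlap each other.

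The natural anticoagulants moved both ways. Proc, which encodes protein C, the protease that inactivates factors V and VIII, read 12.47, 12.51 and 12.43 in injected livers, against 12.92, 12.88 and 12.87 in not-injected livers. It fell by 0.42 ± 0.06 (adjusted p = 0.0029), with all injected livers below all others. Pros1, which encodes protein S, the cofactor of protein C, read 10.08, 9.80 and 10 with injection and 9.37, 9.38 and 9.52 without it. All injected livers were above all not-injected livers, and Pros1 rose 1.45-fold (0.54 ± 0.09, adjusted p = 0.00516). Proc and Pros1 were thus called in opposite directions.

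Among the inhibitors of thrombin, Serpind1, which encodes heparin cofactor II, read 11.77, 12.01 and 11.73 in injected livers and 12.31, 12.34 and 12.28 in not-injected livers. It fell by 0.47 ± 0.09 (adjusted p = 0.00682), and injected replicate 2 was the closest to the not-injected livers. Serpinc1, which encodes antithrombin, read 14.11, 14.10 and 14.10 with injection and 14.20, 14.28 and 14.23 without it. The groups were apart, yet the difference of -0.13 ± 0.06 did not pass (adjusted p = 0.136).

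Protein C, protein S, prothrombin and factors VII, IX and X carry residues that are carboxylated with the help of vitamin K. Of these 6 genes, F2, F10 and Proc fell, Pros1 rose, and F7 and F9 did not pass. Pros1, the riser of largest size among the members, is also expressed outside hepatocytes, in endothelium among other cells. Of 12 endothelial markers 5 were called higher and 0 lower, against 14.2% and 13.9% of all genes, with a median difference of 0.23. Their mean log2 value was 8.57 to 8.79 in injected livers and 8.12 to 8.28 in not-injected livers, and without Lyve1, the marker that moved most (2.10), 8.47 to 8.69 with injection and 8.16 to 8.37 without it. Their part in the rise of Pros1 was not tested. The 250 bases before the start of Pros1 (RefSeq, GRCm38.p6, chr16:62854057-62854306, plus strand) are shown because it was the only coagulation member that rose. They hold no match to the motifs searched, which was also so for many windows of members that fell.
Pros1: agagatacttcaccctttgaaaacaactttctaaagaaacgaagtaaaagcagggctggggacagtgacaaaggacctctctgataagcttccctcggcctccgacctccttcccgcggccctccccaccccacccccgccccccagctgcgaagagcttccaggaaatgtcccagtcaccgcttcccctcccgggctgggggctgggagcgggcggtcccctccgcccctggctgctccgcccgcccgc

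Among the listed fibrinolysis genes the protease and its measured brakes were all lower. Plg, which encodes plasminogen, the zymogen of the enzyme that dissolves fibrin, read 13.65, 13.71 and 13.49 in injected livers, against 13.89, 13.89 and 13.93 in not-injected livers. It fell by 0.29 ± 0.08 (adjusted p = 0.0276). Serpinf2, which encodes antiplasmin, the main inhibitor of plasmin, read 11.81, 11.85 and 11.55 with injection and 12.67, 12.60 and 12.66 without it. The gap exceeded the range of either group, and Serpinf2 fell 1.87-fold (-0.90 ± 0.09, adjusted p = 0.000713), the smallest p among the members.

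Hrg, which encodes histidine-rich glycoprotein, a plasma protein that binds plasminogen and heparin, read 12.63, 13.04 and 12.57 in injected livers and 13.19, 13.20 and 13.22 in not-injected livers. Injected replicate 2 was the highest of the injected livers, and still below all not-injected livers. Hrg fell by 0.45 ± 0.12 (adjusted p = 0.0297). Plg and Hrg kept their direction without any single array but passed only when the array left out was injected replicate 2. Otherwise the adjusted p was 0.0639 to 0.0938 for Plg and 0.0717 to 0.098 for Hrg, and without injected replicate 2 the differences were -0.34 (0.0127) and -0.60 (0.000528).

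The lectin pathway starts when mannose-binding lectins attach to microbial sugars and activate their proteases. Its recognition genes were called in opposite directions. Mbl1 read 11.53, 11.76 and 11.44 in injected livers, against 12.15, 12 and 12.02 in not-injected livers, and fell by 0.48 ± 0.10 (adjusted p = 0.00994). Mbl2 read 13.74, 13.58 and 13.70 with injection and 13.40, 13.38 and 13.35 without it, and rose by 0.30 ± 0.07 (adjusted p = 0.0157). Neither gene had overlapping groups. The rise of Mbl2 did not pass without not-injected replicate 2 or 3 or injected replicate 1 or 3, with differences of 0.27 to 0.30 and adjusted p-values of 0.0518 to 0.063.

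Masp1, which encodes a protease bound to these lectins, read 10.57, 11.01 and 10.52 in injected livers and 11.42, 11.58 and 11.59 in not-injected livers. It fell 1.78-fold by this probe set (-0.83 ± 0.13, adjusted p = 0.00443). The size depended on the probe set. The 4 dimmer probe sets of Masp1 read -0.31, which passed (adjusted p over all probe sets = 0.0162), and -0.14, -0.12 and -0.05, which did not. Masp1 is known to give rise to several proteins by alternative splicing, and which transcripts each probe set reports was not tested. Masp2, the protease that cleaves C4 and C2, read -0.03 ± 0.08 by its brighter probe set (adjusted p = 0.798) and -0.27 ± 0.07 by the other (adjusted p over all probe sets = 0.0291).

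**Figure D2:**
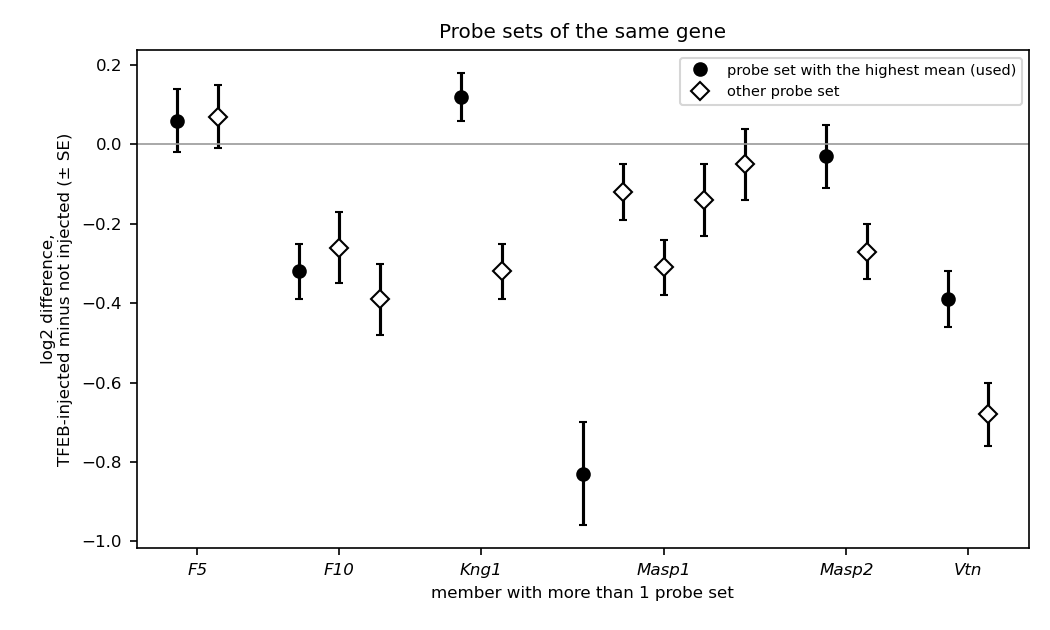
The vertical axis gives the log2 difference, injected minus not injected livers, with ± 1 SE (3 livers each), for every probe set of the 6 members that have more than 1. Filled circles are the probe sets with the highest mean, used elsewhere, and open diamonds the others. Those of F5, F10 and Vtn lie on the same side of 0, those of Kng1 lie on opposite sides at 0.12 and -0.32, and those of Masp1 range from -0.83 to -0.05.

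The convertases that cleave C3 take their protease from C2 in the classical and lectin pathways and from factor B, encoded by Cfb, in the alternative pathway. These related genes are neighbours on chromosome 17, with 0 protein-coding genes between them, and were called in opposite directions. Cfb read 11.64, 11.67 and 11.77 in injected livers, against 12.07, 12.08 and 12 in not-injected livers, and fell by 0.35 ± 0.07 (adjusted p = 0.00802). C2 read 10.67, 10.28 and 10.80 with injection and 10.17, 10.12 and 10.14 without it. Injected replicates 1 and 3 were well above the not-injected livers, and injected replicate 2 was only slightly above them.

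C2 rose by 0.44 ± 0.13 (adjusted p = 0.0376). It passed only with all arrays or without injected replicate 2 (0.59, adjusted p = 0.000834). When any other array was left out, it read 0.33 to 0.45 with adjusted p-values of 0.0811 to 0.116. C2 is also made by macrophages. Of 11 measured markers of Kupffer cells and macrophages 2 were called higher and 2 lower, against 14.2% and 13.9% of all genes. The median difference over these markers was 0.18. Their mean log2 values were 9.12 to 9.37 in injected livers and 9.15 to 9.58 in not-injected livers. Cd163, a scavenger receptor of macrophages, was at -3.62 and set the direction of these means. Over the other 10 markers the mean difference was 0.28, with means of 9.57 to 9.77 in injected livers and 9.25 to 9.64 in not-injected livers. That mean includes Cd68, called higher at 1.74, and Marco, called lower at -0.80. The part of these cells in the rise of C2 was not tested.

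Of the 4 listed regulators that hold complement in check, 3 were lower. C4bp, which encodes the binding protein of C4b, read 12.52, 12.50 and 12.55 in injected livers, against 12.88, 13 and 12.94 in not-injected livers, and fell by 0.42 ± 0.06 (adjusted p = 0.00339). Serping1, which encodes the C1 inhibitor, a serpin that also blocks kallikrein and factor XII, read 12.87, 12.92 and 12.79 with injection and 13.32, 13.26 and 13.28 without it. It fell by 0.42 ± 0.06 (adjusted p = 0.00363). The injected livers agreed closely with each other in both genes, and all lay below the not-injected livers.

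Vtn, which encodes vitronectin, a plasma and matrix protein that keeps terminal complexes soluble, read 13.37, 13.39 and 13.47 in injected livers and 13.86, 13.78 and 13.76 in not-injected livers. It fell by 0.39 ± 0.07 (adjusted p = 0.00487), and by 0.68 ± 0.08 with its other probe set (adjusted p over all probe sets = 0.00101). Cfi, which encodes factor I, the protease that degrades C3b and C4b, read -0.09 ± 0.07 (adjusted p = 0.356), with overlapping groups.

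All 5 terminal components on the list, whose proteins assemble the membrane attack pore, fell, and 4 of them fell by at least 1.5-fold. Averaged over these 5 genes, the log2 value was 11.89, 12.14 and 11.90 in injected livers, against 12.70, 12.77 and 12.76 in not-injected livers. C8a, which encodes the alpha chain of C8, read 12.04, 12.61 and 11.98 with injection and 13.22, 13.25 and 13.29 without it. It fell 2.06-fold (-1.04 ± 0.16, adjusted p = 0.00369), the largest fall among the members. C8b, which encodes the beta chain and lies next to C8a on chromosome 4, read 11.50, 11.54 and 11.29 with injection and 11.91, 12 and 11.96 without it, and fell by 0.51 ± 0.08 (adjusted p = 0.00452).

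C8g, the gene of the gamma chain, read 12.35, 12.84 and 12.45 in injected livers and 13.37, 13.29 and 13.32 in not-injected livers, and fell 1.72-fold (-0.78 ± 0.12, adjusted p = 0.00411). C9, whose product polymerises into the pore, read 13.12, 13.48 and 13.03 with injection and 13.82, 13.90 and 13.79 without it, and fell 1.55-fold (-0.63 ± 0.12, adjusted p = 0.00802). In C8a, C8g and C9 the highest injected value was that of injected replicate 2, and it was still below all not-injected livers. C6, which joins the complex before C8, read 10.45, 10.24 and 10.74 with injection and 11.15, 11.38 and 11.44 without it. There injected replicate 2 was the lowest, and C6 fell 1.80-fold (-0.85 ± 0.14, adjusted p = 0.00448).

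The 250 bases before the start of C8a (RefSeq, GRCm38.p6, chr4:104876399-104876648, minus strand) are shown as those of the member with the largest fall, with a match to GTTAAT in capitals 107 bases before the start.
C8a: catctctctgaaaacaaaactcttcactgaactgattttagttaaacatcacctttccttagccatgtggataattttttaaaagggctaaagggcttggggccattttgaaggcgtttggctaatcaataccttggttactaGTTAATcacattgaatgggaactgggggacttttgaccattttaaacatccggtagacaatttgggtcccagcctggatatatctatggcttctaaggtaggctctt
Over the members, 28 such windows of 27 genes were found. GTTAAT on either strand was in 25.0% of the 28 and in 6.43% of all 32851 windows, and TTGCNNAA in 25.0% and 9.56%. GTTAAT was in 5 of 17 windows of members that fell and in 2 of 9 windows of members that did not pass, and TTGCNNAA in 4 of 17 and 3 of 9. CACGTG, the core of the sites that TFEB binds, was in 0 of the 28 windows and in 6.02% of all windows, and CAAAGTCCA, an element bound by HNF4, in 0 and 0.384%. These are matches of letters and not measured binding.

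**Figure D3:**
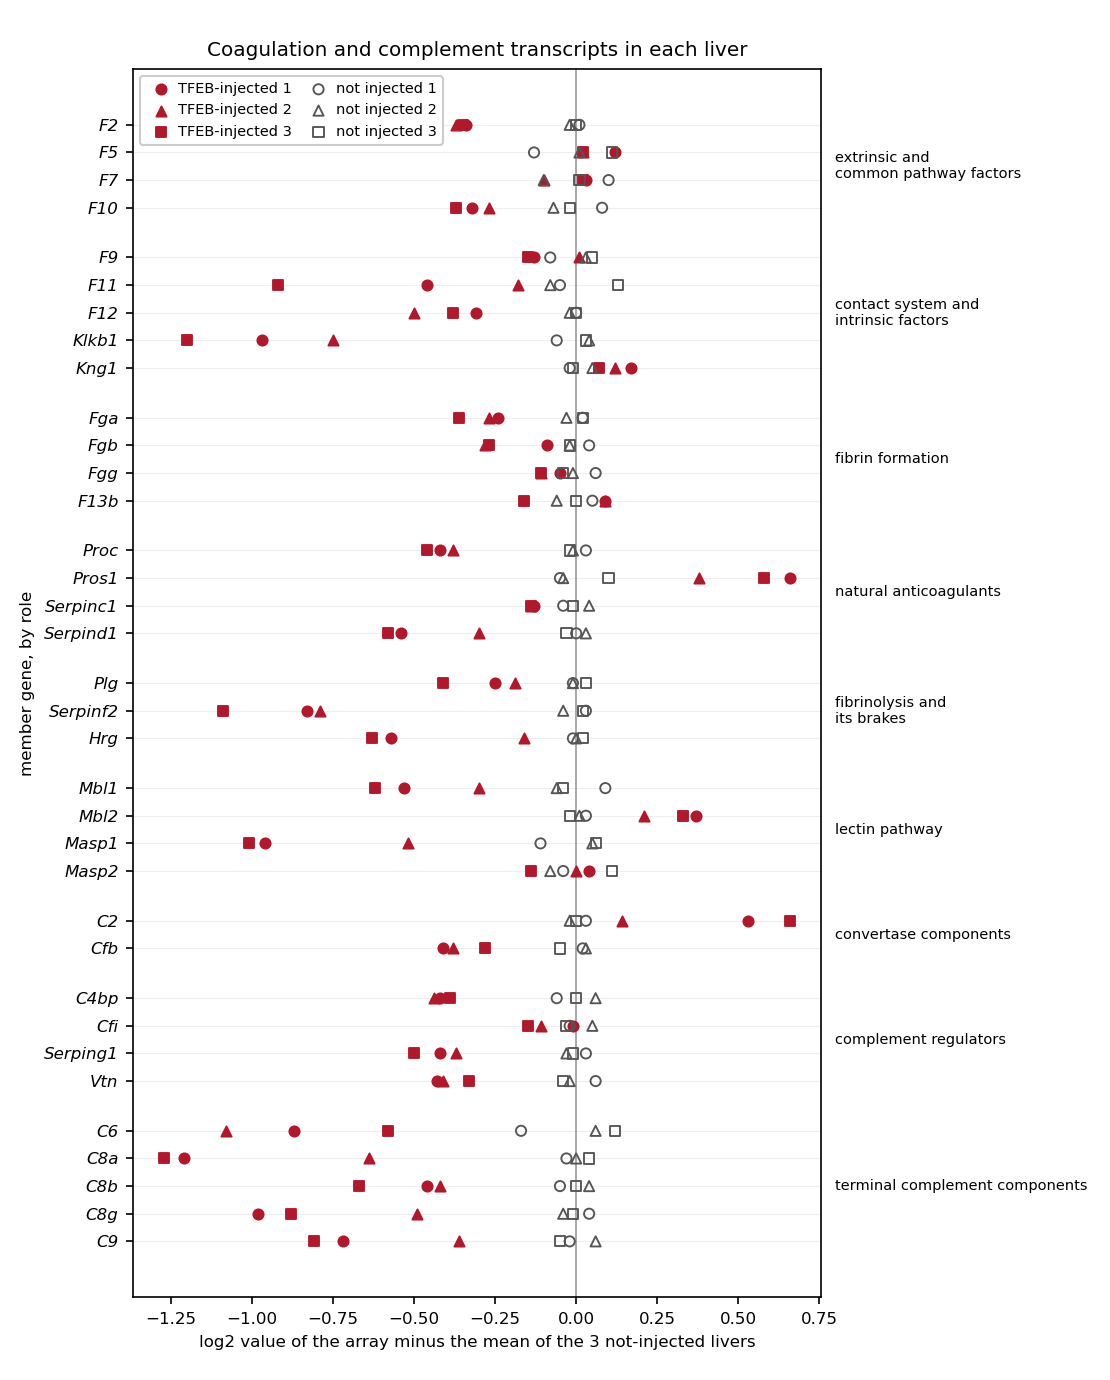
The horizontal axis gives the log2 value of each array minus the mean of the 3 not-injected livers, for the 35 members ordered by role from top to bottom. Filled red symbols are injected livers and open grey symbols not-injected livers, with circles, triangles and squares for replicates 1, 2 and 3. The groups do not overlap in 29 members, and the injected livers are spread more widely than the not-injected ones in most rows.

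Most members varied more among the injected livers than among the not-injected ones. The SD was larger with injection in 27 of 35 members and in 7466 of all 12393 genes, with a median over members of 0.096 in injected livers and 0.043 in not-injected livers. Over all genes these medians were 0.101 and 0.084. Injected replicate 2 was the injected liver nearest to the not-injected mean in 22 of 35 members, against 49.8% of all genes. It was the nearest in 17 of the 24 called members, among them C8a, C8g, C9, Hrg, Masp1, Klkb1 and C2. The same held for 62.7% of all called genes. F12, C4bp and C6 are called members in which it was not the nearest. Without injected replicate 2, 22 members were called lower and 3 higher, against 21 and 3 with all arrays. Calls over all 12393 genes also grew without it, from 3486 to 4378.

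Genes of the same cascades outside the list of members were also counted. Of 24 other measured genes of coagulation and fibrinolysis 6 fell, 3 rose and 15 did not pass, with a median difference of 0.00. The shares were 25.0% lower and 12.5% higher, against 13.9% and 14.2% of all genes. Proz, which encodes protein Z, another vitamin K-dependent plasma protein, read 11.99, 12.08 and 11.84 in injected livers, against 12.46, 12.47 and 12.50 in not-injected livers, and fell by 0.50 ± 0.08 (adjusted p = 0.00341). Plgrkt, a plasminogen receptor of cell surfaces, rose by 0.42 ± 0.09 (adjusted p = 0.0104). Thbd, which encodes thrombomodulin, the endothelial receptor that turns thrombin to the activation of protein C, rose 2.16-fold (1.11 ± 0.24, adjusted p = 0.0132). Leaving out not-injected replicate 2 gave 1.03 with an adjusted p of 0.0559, which does not pass, and the endothelial markers that rose beside it were given above.

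Of 19 other measured complement genes 2 fell, 1 rose and 16 did not pass, with a median of 0.11. These shares, 10.5% lower and 5.26% higher, were below the 13.9% and 14.2% of all genes. C1ra, which encodes the C1r protease of the classical pathway, read 10.99, 10.82 and 10.77 in injected livers and 11.43, 11.52 and 11.46 in not-injected livers. It fell 1.52-fold (-0.61 ± 0.08, adjusted p = 0.00175). Cfhr2, a gene related to the regulator factor H, fell 1.63-fold (-0.70 ± 0.12, adjusted p = 0.00648). Cd55, which encodes a membrane protein that breaks up convertases, rose by 0.46 ± 0.10 (adjusted p = 0.0132).

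Clotting factors need carboxylation, sulphation and transport before they are secreted. Of 10 measured genes of the vitamin K cycle and of factor secretion 5 fell, 1 rose and 4 did not pass, with a median of -0.20. Ggcx, which encodes the vitamin K-dependent carboxylase, read 7.92, 7.94 and 7.81 in injected livers, against 8.66, 8.25 and 8.55 in not-injected livers, and fell 1.51-fold (-0.60 ± 0.11, adjusted p = 0.00728). Lman1, a cargo receptor that carries factors V and VIII out of the endoplasmic reticulum, read 11.46, 11.46 and 11.44 with injection and 11.94, 12.05 and 12.07 without it, and fell by 0.57 ± 0.06 (adjusted p = 0.00112). Tpst1, a tyrosine sulphotransferase, fell by 0.59 ± 0.10 (adjusted p = 0.00632). In all 10 genes the groups did not overlap, 8 of them lower with injection. Over all genes the groups did not overlap in 46.2%, with 26.1% lower.

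Other plasma proteins of hepatocytes gave a mixed picture. Of 15 measured, 7 fell and 1 rose, 7 did not pass, and the median was -0.14. Itih1, the gene of a heavy chain of inter-alpha-trypsin inhibitor, fell 2.15-fold (-1.11 ± 0.08, adjusted p = 0.000234), Fetub, which encodes fetuin B, by 0.58 ± 0.09 (adjusted p = 0.00357) and Ces1c, a carboxylesterase of plasma, by 0.49 ± 0.06 (adjusted p = 0.00165). The share called lower was 46.7% in this group, 60.0% among the members and 13.9% among all genes.

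**Figure D4:**
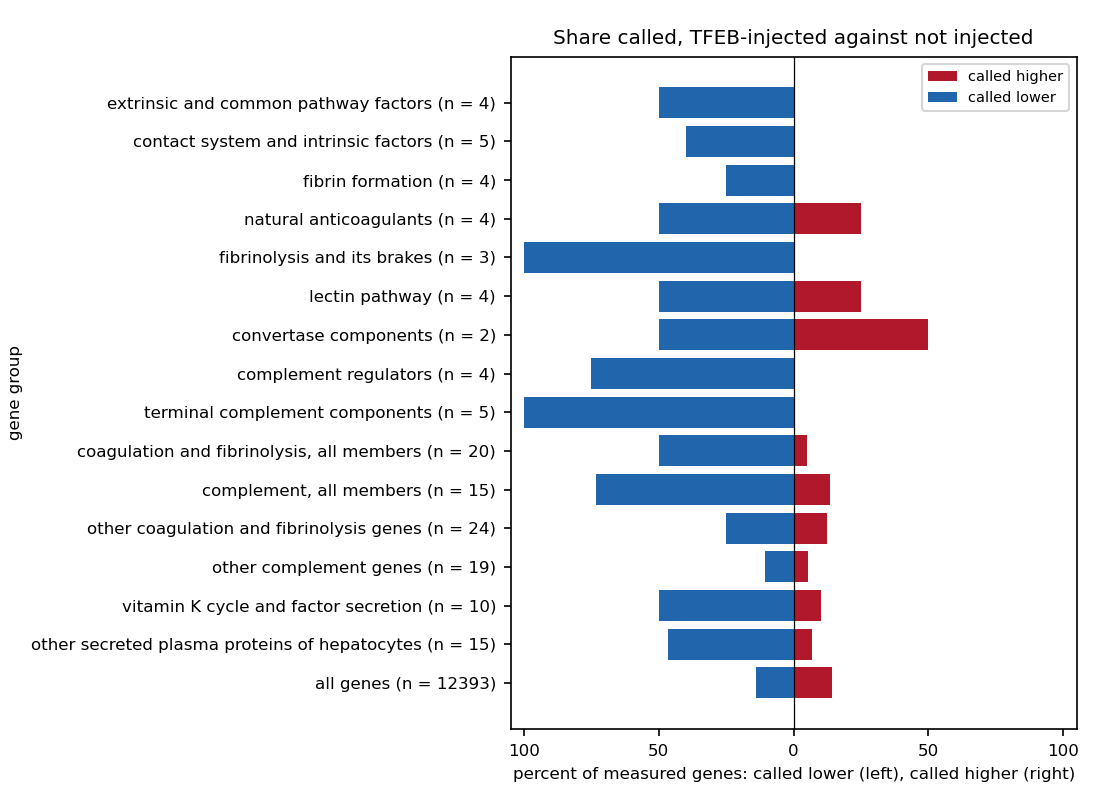
Horizontal bars give the percent of measured genes called lower (blue, to the left) and higher (red, to the right) in injected against not-injected livers, for the roles of the members, both cascades, related groups and all genes, with the number measured in brackets. All 3 measured members of fibrinolysis and all 5 listed terminal components were called lower, and all genes show 13.9% lower and 14.2% higher.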

How the data were processed

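Liver RNA of 6 mice was measured on Affymetrix arrays. The authors deposited log2 values per probe set. The submitters' processing notes name affy and RMA, without versions. RMA usually equalises the arrays, so a shift of all transcripts would not be seen. Filters and detection calls are not given in the sources used here, and having only 3 arrays a group limits the precision.

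Of 22690 probe sets, 20380 had 1 symbol in GEO's platform annotation. Each gene was represented by its brightest probe set on average, without a filter on low values. limma 3.58.1 (R 4.3.3) fitted injected against not-injected livers with lmFit and eBayes, two-sided, over all genes. Levels of different genes were not compared. Data were also simulated from 12393 genes with 3 arrays per group. Of genes changed by 0.3 (log2) 16.4% were called, of those changed by 0.5 53.7%, and of those changed by 1 90.9%. Of the calls 6.14% were false. Far fewer genes were changed in the simulation than were called in the livers. The adjusted p depends on the share of genes changed, so these percentages need not hold for the livers. Promoters came from RefSeq. Python 3.11.15, pandas 2.3.3 and matplotlib 3.10.9 were used.

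All members were named. Up to 3 called genes with the smallest p were named from each related list and up to 2 from each list of cell markers, of which those beside a result are given. The members and lists were chosen with earlier results of these data known. Alternatives comprised leaving out each array, array weights, centring, quantile normalization applied again, a filter on dim genes, an intensity trend, a block for the replicate number, averaged probe sets and each single probe set. Marker means without the marker that moved most were added after seeing the data.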

Additional observations from a re-analysis of the deposited data

How the results depend on the processing

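Of the 24 called members, 17 kept direction and call under every alternative run, and the exceptions were C2, Hrg, Plg, Mbl2, Fga, F10 and Masp1. With single arrays left out, genes called numbered 1973 to 4378 (3486 with all arrays), members called higher 1 to 3, complement members called higher 0 to 2 and members called lower 18 to 22, and complement members called lower stayed at 11. Correlations of deviations between the groups were 0.136, 0.057 and 0.011 for equal replicate numbers, and -0.163 to 0.077 for unequal ones. With 3 arrays per group these values cannot settle whether the numbers pair the livers. With the number as a replicate block, 3348 genes, 21 members lower and 3 higher were called, and all 24 called members kept their call. Centring and the filter on dim genes added calls of F11 and Fgb, the intensity trend those of Fgb and Serpinc1, and array weights that of F11. Signs turned only in members that were not called. With single arrays left out, F5 read -0.01 to 0.11, F7 -0.07 to 0.03, F13b -0.03 to 0.09 and Masp2 -0.07 to 0.02. F5 read -0.01 after centring and F7 0.01 with array weights. Kng1 read -0.10 when its probe sets were averaged and -0.32 by the dimmer one. F13b read -0.01 after a second quantile normalization, -0.06 after centring and -0.00 with array weights. For named genes outside the list the same alternatives were chosen after seeing the data, and Tfeb read -0.01 after centring and -0.05 to 0.11 with single arrays left out. The causes were not tested.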

Other observations

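Listed transcription factors of hepatocytes moved in both directions. Whether they act on the promoters of the members was not tested. Of 15 measured, 5 fell, 3 rose and 7 did not pass, with a median of -0.21. The shares were 33.3% lower and 20.0% higher, against 13.9% and 14.2% of all genes. The nuclear receptors Nr5a2 and Nr2f2 fell by 0.62 ± 0.08 (limma adjusted p = 0.00183) and 0.49 ± 0.07 (adjusted p = 0.0029), and the clock output factor Dbp rose 4.67-fold (2.22 ± 0.35, adjusted p = 0.00408). Cebpa and Cebpb, singled out after their values were seen, were called in opposite directions. Cebpa read 9.97, 10.43 and 10.19 in injected livers and 10.64, 10.76 and 10.78 in not-injected livers (-0.53 ± 0.12, adjusted p = 0.0152). It did not pass without not-injected replicate 2 (adjusted p = 0.0585) or 3 (adjusted p = 0.0582). Cebpb read 11.11, 11.21 and 11.17 with injection and 10.83, 10.72 and 10.88 without it (0.35 ± 0.07, adjusted p = 0.00959).

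Genes of interleukin-6 signalling and of the acute phase, in which fibrinogen and several complement genes are known to take part, were also divided. Of 19, 5 rose, 4 fell and 10 did not pass, with a median of 0.03. The shares were 26.3% higher and 21.1% lower, against 14.2% and 13.9% of all genes. The siderophore-binding Lcn2 rose 2.36-fold (1.24 ± 0.13, adjusted p = 0.000747) and the acid glycoprotein Orm2 2.94-fold (1.56 ± 0.25, adjusted p = 0.00462). Haptoglobin, encoded by Hp, read 13.30, 13.40 and 13.58 in injected livers against 14.13, 14.17 and 14.18 in not-injected livers, and fell 1.66-fold (-0.73 ± 0.08, adjusted p = 0.00112).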
